A study of Homo sapiens with 9 samples.

Results

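The peaks described here are the places on RNA where the authors called more Argonaute binding in breast cancer cells given a mimic of miR-342-3p than in those given a negative control mimic. All 3450 regions of the merged miR-342-3p peak list were taken, of 8460 in the series; the other 5010 belong to the miR-342-5p mimic, the opposite arm of the same hairpin. The cells were 231HM, a highly metastatic variant of the triple-negative breast cancer line MDA-MB-231. They were transfected with 20 nM of either mimic and cross-linked after 48 h, and RNA bound by Argonaute was sequenced from 3 miR-342-3p and 3 negative control libraries (Ago-HITS-CLIP). The transfected line is a single line, and the mimic is an added synthetic RNA and not the cells' own miR-342. The list was called on merged libraries, so a peak has 1 score, no replicate error and an unknown depth, and intervals below (95%, Wilson) cover counting error only. The study also transfected a miR-342-5p mimic into 3 further cultures, and both peak lists share the negative control libraries.

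A microRNA guides an Argonaute protein to messenger RNA by base pairing, above all through its seed, the bases near its 5′ end. Bound mRNAs are usually translated less and decay faster, and sites in the 3′UTR are the best known. Pairing beyond the seed, through bases in the 3′ part of the microRNA, can add to a weak seed match.

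The mature sequence from RefSeq (GRCh38.p14) is shown with the seed, bases 2 to 8, in capitals. A 7mer-m8 site is the complement of the seed, an 8mer adds an A after it, a 7mer-A1 has that A but lacks the pair with base 8, and a 6mer lacks both.
miR-342-3p: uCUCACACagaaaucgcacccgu

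Peaks were of several kinds by sequence, and the examples that follow were chosen for their high scores or for the function of the gene. Each shows 30 bases of the hg19 reference as RNA near the summit of the gene's highest peak, with the match to the microRNA in capitals. The following 6 peaks had a seed site.
DUSP6: ggaaguguguguGUGUGAGcauggguaccc
IER3: gucugucuacuGUGUGAGAcuucggcggac
NRP1: aguuuauuuucGUGUGAGAugccagccccu
CDC42: cacaugcacucGUGUGAGAcaaggcccaua
E2F1: gggggugaauguGUGUGAGcaugugugugu
EEF1G: gaagugaaacuGUGUGAGAagauggcccag

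The DUSP6 site lies in the 3′UTR at chr12:89741980-89742009 on the minus strand, at a peak with a score of 5334. Those of IER3 (chr6:30711135-30711164, minus strand, score 1125), NRP1 (chr10:33468114-33468143, minus strand, score 851), CDC42 (chr1:22418137-22418166, plus strand, score 173) and E2F1 (chr20:32264268-32264297, minus strand, score 65) are also in 3′UTRs. The EEF1G 8mer is in a coding exon (chr11:62334878-62334907, minus strand, score 746). The score is the authors' count of reads above background, and the list holds scores of at least 5 with a median of 24.

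The next 5 peaks had none of the site types defined above within 50 nt of the summit. MSN, RAN and TUBB3 held the 7mer with 1 base changed, which keeps GUGUGA, the complement of bases 3 to 8. PRSS23 held an alternating GU run, and CD46 a match to bases 14 to 20 of the microRNA, in its 3′ part.
MSN: uggagauguaugGUGUGAAcuacuucagca
RAN: ucugguacgaguGUGUGAAaacauccccau
TUBB3: ggugcggaaggaGUGUGAAaacugcgacug
PRSS23: acGUGUGUGUGUGUGUGUGUGUGUGUGUaa
CD46: gugccacuucauGGUGCGAagugaacacug

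MSN (chrX:64951741-64951770, score 1134), RAN (chr12:131359164-131359193, score 398) and TUBB3 (chr16:90001216-90001245, score 932) were bound in coding exons on the plus strand. PRSS23 (chr11:86519924-86519953, score 2295) and CD46 (chr1:207967680-207967709, score 1924) were bound in 3′UTRs, also on the plus strand. A match of letters does not show that the microRNA paired there.

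Placed by midpoint and strand, 3346 of the 3450 peaks lay in an annotated gene, 104 lay in none on their strand, and 49 midpoints lay in more than 1 gene. The midpoints fell in 2308 genes. After each shared peak was given to 1 gene, 2276 genes had at least 1 peak, of which 2233 were protein-coding, 36 lncRNAs and 2 miRNAs. The protein-coding genes were 11.4% of the 19519 annotated. The MIR342 hairpin itself had a score of 6398, the highest of the list. Because the peak covers the sequence of the mimic, it was left out of the sums that follow, which leaves 2275 genes.

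The summed score of a gene, the total over its peaks, was very uneven. Its quartiles were 17.0, 33.0 and 73.0, and it ran from 6 to 6069. The top 1% of genes, 23 genes, held 17.9% of the total of 183562, the top 10% held 53.7%, and 192 genes (8.44%) held 50% of it. In all, 404 genes were above 100, of which 401 were protein-coding (2.05% of those annotated, against 2.07% for miR-342-5p), and 13 were above 1000. The score is not divided by the abundance of the mRNA, which was not measured here, so a weakly bound abundant mRNA and a strongly bound scarce one cannot be told apart.

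**Figure D1:**
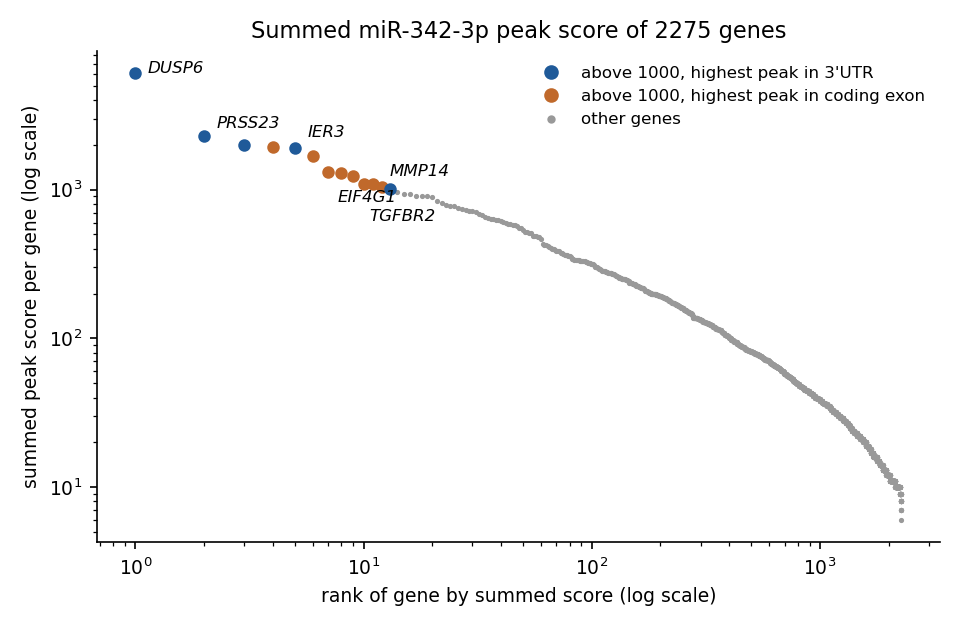
Summed miR-342-3p peak score of each of 2275 genes (y axis, log scale) against its rank (x axis, log scale). The coloured points are the 13 genes above 1000, by the location of their highest peak; DUSP6 stands at 6069, with the next gene, PRSS23, at 2295.

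DUSP6, the phosphatase that switches off ERK, had the highest summed score, 6069 over 5 peaks. Its 3′UTR peaks had scores of 5334, 572, 117 and 36, and a peak of 10 was in the 5′UTR. A single 3′UTR peak with the 7mer shown above therefore carried most of the total. There the 7mer overlaps an alternating GU run of at least 12 nt, and their parts in the score were not tested. IER3, a stress-induced gene that acts on ERK signalling, had 1908 over 4 peaks, all in its 3′UTR, with scores of 1125, 485, 198 and 100. Its peaks of 1125 and 485 each had an 8mer.

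PRSS23, a secreted serine protease, had 1 peak, of 2295, at an alternating GU run of 26 nt. CD46, a membrane protein that protects cells from complement, had 2001, of which 1924 came from the 3′UTR peak without a seed site and the rest from coding-exon peaks of 41, 18 and 18. NCOA4, the receptor that delivers ferritin to autophagy, had 1933 from a coding-exon peak of 1126 with a 7mer and a 3′UTR peak of 807 without a site.

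EEF1G, a subunit of an elongation factor, had 1321 over 6 coding-exon peaks, of which only that of 746 had an 8mer, while peaks of 388 and 112 had no site. EIF4G1, the scaffold of the cap-binding complex, had 1287 over 3 peaks with no site at any of them. EEF1G, TUBB3, FKBP1A and the ribosomal protein genes have close copies elsewhere in the genome, and how the reads were shared among copies is not given in the sources used here.

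AHNAK, a very large scaffold protein, had 1694 over 16 peaks, the largest number of any gene, with no single peak above 295. MSN, which ties actin to the plasma membrane, had 1242, almost all from the coding-exon peak of 1134. MMP14, a membrane-anchored matrix protease, had 1083 from 1 coding-exon peak. TGFBR2, the type II receptor for TGF-beta, had 1036 over 3 coding-exon peaks, and the 7mers were at its peaks of 100 and 23, not at that of 913. NT5E (CD73), which makes adenosine outside the cell, had 1015 over 5 peaks with no site. NRP1, a co-receptor for VEGF and semaphorins, had 909, of which 851 came from the 8mer peak in its 3′UTR.

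The rest of the 20 highest were PSAP (1094), the precursor of the lysosomal saposins, SFN (959), the 14-3-3 sigma protein, TUBB3 (932), a beta-tubulin, YTHDF1 (928), a reader of methylated RNA, FKBP1A (911), an immunophilin, and PKM (909), a glycolytic kinase, with the hairpin. Divided by transcript length, 10 of the 20 genes with the highest sums stayed among the 20 highest per kb. DUSP6 had 1673 and IER3 had 1542 of score per kb of transcript, against a median of 8.93 over 2233 protein-coding genes. AHNAK fell to rank 122, with 90.3 per kb. RAN, PSMB3 and HMGB2, which have short transcripts, reached 510, 505 and 440 per kb.

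Most bound genes had a single peak: 1630 genes (71.6%, CI 69.7–73.4%), with a median score of 23. Another 422 genes had 2 peaks, 176 had 3 or 4, and 46 had 5 to 9. Only AHNAK and INPP5A had 10 or more. Other genes with many peaks were AHNAK2 (9), TNC (9), ITGB4 (8), DST (8), LAMB3 (7) and DCBLD2 (7), while NEAT1, a nuclear long non-coding RNA, had 9. In the 646 genes with more than 1 peak the highest held a median of 64.8% of the summed score. Of 1070 pairs of neighbouring summits in a gene, 292 (27.3%) were within 100 nt, so many peaks of a gene were next to each other.

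TNC, the matrix protein tenascin C, was of this kind. Its 9 coding-exon peaks lay at chr9:117848359-117849452, with scores from 9 to 176. INPP5A, an inositol phosphate phosphatase, was unlike the others: 9 of its 10 peaks lay in an intron within 1620 nt of each other, 8 of the 9 had a seed site, and their scores were 6 to 23.

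More than 1 peak was found in 28.4% of the miR-342-3p genes (646 of 2276) and in 39.1% of the miR-342-5p genes (889 of 2276). The shares differed by −10.7 percentage points, and Fisher's exact test, two-sided, gave p = 3.0e-14 and an odds ratio of 0.618. The test compares the 2 merged lists and not the conditions, since it holds no spread between libraries. The miR-342-3p list has 3450 peaks and the miR-342-5p list 5010, over equal numbers of genes. The test does not take this unequal list size into account, so it does not show a different pattern of binding. Some genes, such as DUSP6 and EGFR, are in both lists, and the test treats the lists as independent.

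Longer transcripts were bound more often. The median transcript was 2826 nt over all protein-coding genes, 4010 nt for bound genes and 4316 nt for those with more than 1 peak. In 4 groups of nearly equal size, from short to long, 4.99%, 8.65%, 13.3% and 18.8% of the genes had a peak.

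Genes bound in coding exons and not in the 3′UTR were the largest class, with 1227 genes (53.9%, CI 51.9–56.0%) and a median summed score of 32.0. A further 774 genes (34.0%, CI 32.1–36%) were bound in the 3′UTR and not in coding exons, with the same median of 32.0. The 133 genes bound in both had a median of 84.0. Introns alone held the peaks of 63 genes (median 17.0), 5′UTRs those of 49 (19) and non-coding exons those of 29 (17.0). Genes bound in the 3′UTR but not in coding exons, and those bound the other way round, thus had equal medians. Either class can also hold peaks in other parts, such as the 5′UTR.

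Among genes bound in coding exons alone, the 10 highest were EEF1G, PSAP, MMP14, TGFBR2, TUBB3, PKM, ITGB1, LGALS3BP, AHNAK2 and TRIM28. ITGB1, the beta-1 integrin chain, had peaks of 671 and 222, with a 7mer at the former and an 8mer at the latter. TRIM28, a co-repressor of transcription, had an 8mer at its peak of 709, and LGALS3BP, a secreted glycoprotein, had 3 peaks and no site. Of genes bound in introns alone, CNOT11 (219), BRD7 (183), NAAA (104), LINC02210 (67) and ACTN1 (64) were highest. The 3 intronic peaks of ACTN1, an actin cross-linker, each had a 7mer.

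After the hairpin, the non-coding genes with the highest sums were NEAT1 (465), ENSG00000270066 (135), EBLN3P (128) and LINC02393 (84). The exons of EBLN3P and LINC02393 were bound at GU runs of 36 and 46 nt.

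The highest peak of a gene lay in the 3′UTR for 845 of 2276 miR-342-3p genes (37.1%, CI 35.2–39.1%). The share was 19.7% of the miR-342-5p genes (448 of 2276), 17.4 points lower, with an odds ratio of 2.41 and p = 3.5e-39 by the same exact test. Genes that are in both lists were again treated as independent. Over all protein-coding genes, the 3′UTR of 907 (4.65%) was bound with the miR-342-3p mimic and that of 558 (2.86%) with the miR-342-5p mimic.

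Within 3′UTRs, peaks lay toward the stop codon. Of 1002 peaks that could be placed on the longest coding transcript, 28.6% (CI 25.9–31.5%) were in the first of 5 equal parts, and 21.6%, 17.7%, 15.7% and 16.5% in those that follow. The 1907 coding-exon peaks were spread more evenly, at 19.8%, 22.1%, 21.4%, 19.2% and 17.5%.

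**Figure D2:**
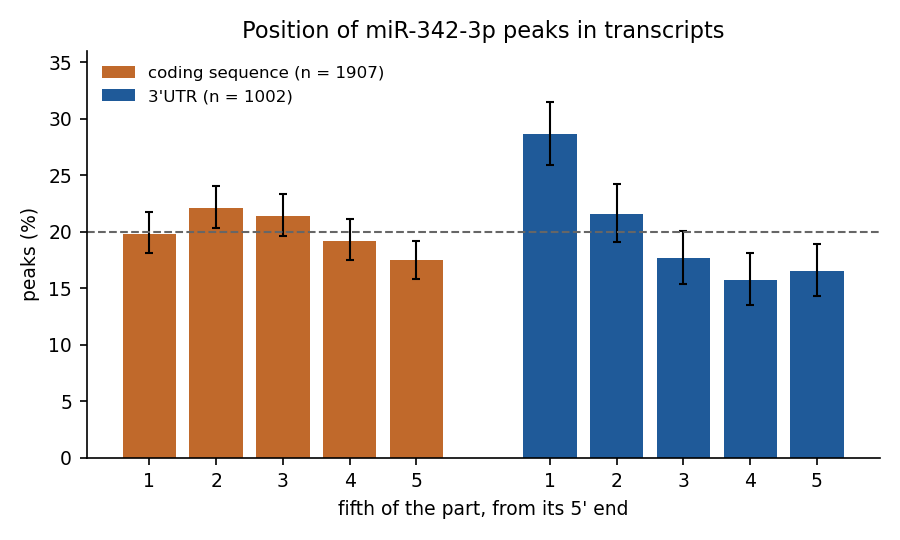
Share of miR-342-3p peaks (y axis, percent) in each of 5 equal parts of the coding sequence and of the 3′UTR, from the 5′ end (x axis); bars are shares, error bars 95% Wilson intervals, and the dashed line marks an even spread. The first part of the 3′UTR holds 28.6% of its peaks, above the other parts.

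A 7mer or 8mer within 50 nt of a summit was found in 606 genes (26.6%, CI 24.9–28.5%), with a median summed score of 46.0. The 251 genes with an 8mer had a median of 57.0, the 355 with a 7mer and no 8mer 41.0, and the 186 with a GU run and no site 33.0. The 1483 genes with neither, 65.2% of all, had 29.0. These medians are descriptions, because genes with more peaks have more windows in which to hold a site: 49.8% of the 8mer genes had more than 1 peak, against 22.3% of those with neither.

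By peak the same order was seen. An 8mer or 7mer was present at 15.2% (CI 11.1–20.5%) of peaks with scores of 5 to 9 and at 27.7% (CI 23.4–32.4%) of those of 100 or more, and an 8mer alone at 4.46% and 14.6%. By location, sites were at 23.6% of 3′UTR, 16.3% of coding-exon and 50.8% of intron peaks. In all, 712 miR-342-3p peaks had a 7mer or 8mer for miR-342-3p. In the longer miR-342-5p list (5010 peaks) 49 had one.

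In 256 genes a site stood at a 3′UTR peak, and the highest scores at such peaks (genes chosen here after their values were seen) were those of DUSP6, IER3 and NRP1. They were followed by TRAM2 (552), KLF6 (521), TACC1 (494), CRIM1 (477) and FOXQ1 (473). KLF6 and FOXQ1 are transcription factors, and TACC1 is a centrosome and spindle protein. IGF1R, the receptor for insulin-like growth factors, had a pair of 8mer peaks of 350 and 113 in its 3′UTR. Sites at coding-exon peaks occurred in 285 genes.

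The number of sites in an annotated 3′UTR went with binding. A 3′UTR peak was present in 2.95% (CI 2.68–3.24%) of the 14226 genes with no 7mer or 8mer in the 3′UTR, in 8.74% with 1 site, 12.5% with 2 and 15.2% with 3 or more. For miR-342-5p peaks in the same genes the shares were 2.45%, 4.15%, 5.18% and 4.07%. The 3′UTRs lengthened along this series, from a median of 928 to 6263 nt, and the miR-342-5p shares stand beside the others for that reason.

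Most sites were not under a peak. Of 850 8mers in the 3′UTRs of protein-coding genes, 117 (13.8%) had a summit within 50 nt, against 4.54% of 7mer-m8 and 1.07% of 7mer-A1 sites. In genes with a miR-342-5p peak, a set not chosen by miR-342-3p binding and whose mRNAs were present to be bound, the shares were 30.6%, 12.6% and 1.85%. In genes with a miR-342-3p peak they were 52.5%, 23.8% and 6.83%, which is raised by the choice of bound genes itself.

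**Figure D3:**
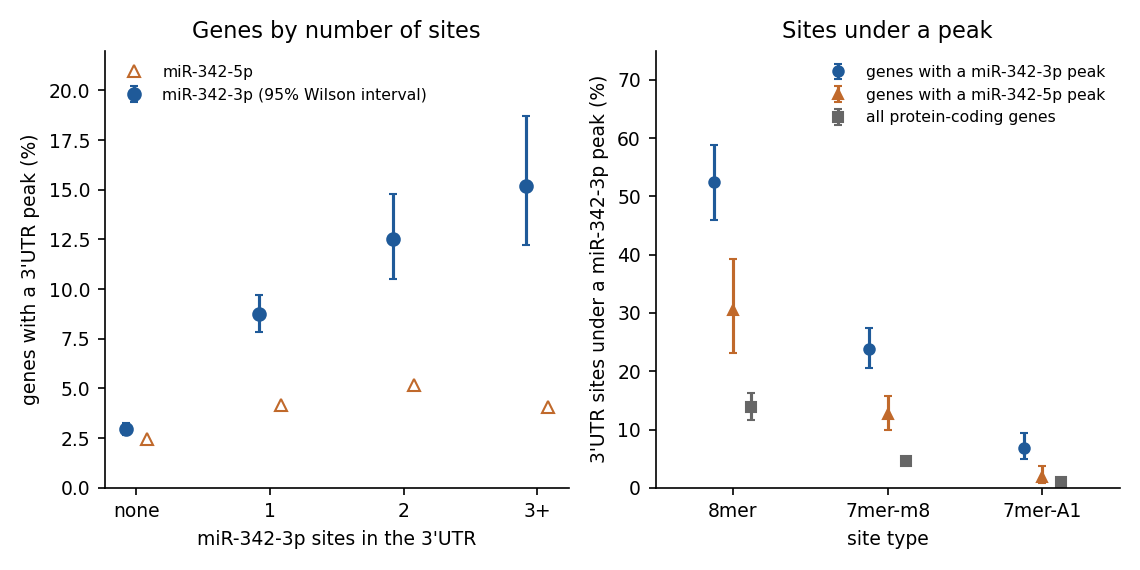
Left, share of protein-coding genes with a 3′UTR peak (y axis, percent) by the number of miR-342-3p 7mer and 8mer sites in the annotated 3′UTR (x axis), for both peak lists. Right, share of 3′UTR sites with a miR-342-3p summit within 50 nt by site type, for 3 sets of genes; error bars are 95% Wilson intervals. The shares rise with the number of sites for miR-342-3p, to 15.2%, and fall from 8mer to 7mer-A1 in each set.

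Of the 3449 peaks outside the hairpin, 2627 had no 6mer, 7mer or 8mer within 50 nt of the summit. These windows were searched for near matches on the strand of the peak and, as a reference, on the opposite strand; the searches were chosen after the peaks had been seen. A 7mer with 1 base changed was present in 1251 windows (47.6%) and on the opposite strand in 200 (7.61%). In windows without a GU run of at least 12 nt the shares were 41.9% and 7.85%. Counted from 1 at the 5′ end of GUGUGAG, the commonest changes were A6U (516 windows against 13 on the opposite strand), G7A (284 against 12), G7U (181 against 8) and A6C (147 against 4). A change at position 6 or 7 leaves the complement of bases 4 to 8 of the microRNA and loses the complementary base opposite base 3 or base 2. A6G (93 windows) puts a G opposite the U at base 3, which can still form a G:U pair. Changes at positions 2 to 5 were each in 2.63% to 6.01% of windows, while those at position 6 were in 23.4% and those at position 7 in 20.5%. The A6U word, GUGUGUG, is itself an alternating GU stretch, so every window with a GU run holds it. In windows without a GU run, position 6 was at 15.0% and position 7 at 20.7%, so position 7 then came first. The MSN, RAN and TUBB3 sequences above are of the G7A kind.

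The same windows were searched for words complementary to each stretch of 6 bases of the whole microRNA. UGUGUG, the complement of bases 4 to 9, was present in 34.6% of windows, against 2.02% on the opposite strand and 2.38% of the 4874 miR-342-5p windows without a miR-342-3p seed match. Without GU runs it was still in 27.5%. GUGUGA (bases 3 to 8) was in 20.5%, and the shares then fell to about the reference level for words that begin at bases 8 to 11. From base 12 on the shares were again above both references, most of all in the 3′ part at bases 14 to 21: GUGCGA (bases 14 to 19) was in 5.79% against 0.152% on the opposite strand and 0.657% of miR-342-5p windows. GGUGCG (bases 15 to 20) was in 7.61% against 0.571% and 1.19%, and GGGUGC (bases 16 to 21) in 6.20% against 1.71% and 2.32%. At the other end, GUGAGA (bases 1 to 6) was in 6.97% against 1.52% and 1.81%.

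**Figure D4:**
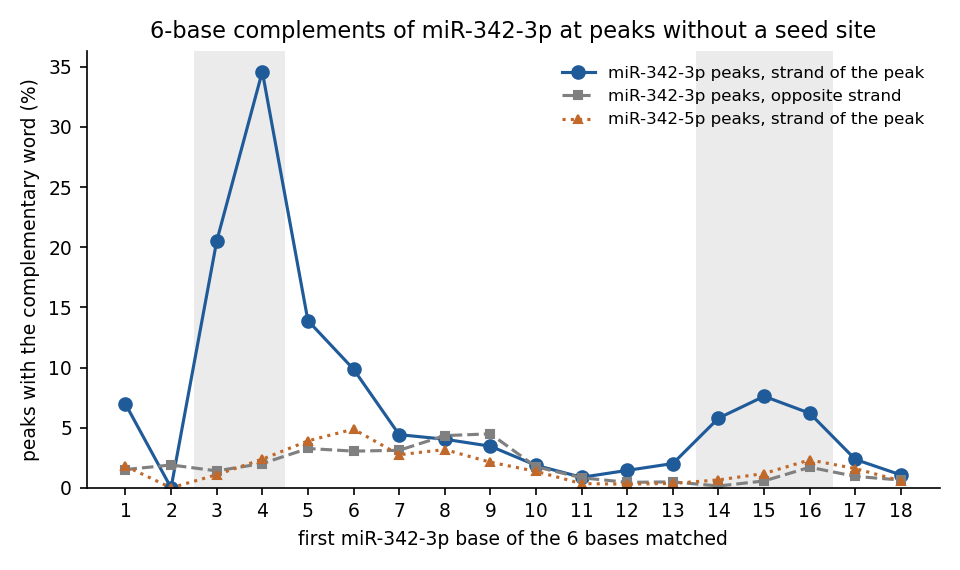
Share of peaks without a seed site (y axis, percent) that hold the complement of 6 consecutive bases of miR-342-3p within 50 nt of the summit, by the first of those bases (x axis). Words beginning at base 2 are absent from the windows of both lists by construction, on the strand of the peak; the miR-342-3p line stands above both references at all bases but 2, 8 and 9, and by little at bases 10 and 11. Shading marks bases 3 and 4, with the highest shares, and bases 14 to 16, whose words are counted together in the text.

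At least 1 of these 3 words of the 3′ part was near 486 of 3449 summits (14.1%, CI 13–15.3%), against 2.26% on the opposite strand and 190 of 5009 miR-342-5p summits (3.79%, CI 3.30–4.36%). The miR-342-5p list is no neutral reference for these words: GGGUGC is the complement of bases of the miR-342-5p seed site, and on the opposite strand of miR-342-5p peaks the 3 words were near 1440 summits (28.7%). In coding exons alone the shares were 13.9% and 3.67%, and in 3′UTRs 12% and 3.11%. They were at 15.5% of peaks with no seed match and 8.07% of those with an 8mer. By score, the share was 9.38% (CI 6.21–13.9%) at 5 to 9 and 17.8% (CI 14.3–22%) at 100 or more. The words lay close to the summit, within 15 nt in 74.9% of cases, as 7mers and 8mers did in 87.4%. The highest such peaks were those of CD46 (1924) and TUBB3 (932). TUBB3 held both kinds of word, GGUGCG followed by the changed 7mer. That order, with a gap of up to 20 nt, was found in 61 windows with a changed 7mer and the reverse order in 32. With an intact 7mer or 8mer the counts were 26 and 17, and in miR-342-5p windows with a changed 7mer they were 1 and 5. The difference between the orders was not tested.

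Alternating GU runs of at least 12 nt were near 355 of 3450 summits (10.3%, CI 9.32–11.3%) and near 5 of 5010 miR-342-5p summits (0.0998%). The shares differed by 10.2 points, with an odds ratio of 115 and p = 2.7e-134 by the exact test, and peaks within a gene are not independent. Runs were near 67.3% of peaks in no gene, 39.7% of intron, 17.6% of 3′UTR and 0.313% of coding-exon peaks. A GU run holds the complement of bases 4 to 9 many times over. Of the 186 genes with a run and no site, 80.6% were bound in the 3′UTR. LFNG, a glycosyltransferase that modifies Notch, had a 3′UTR peak of 490 at a run of 16 nt, and XPO1, the main nuclear exporter, a 5′UTR peak of 313 at a run of 32 nt.

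Bound genes were then read by function, with 24 lists of 1004 genes. In all, 332 list genes (33.1%, CI 30.2–36%) had a peak against the background of 11.4% of protein-coding genes, with a median summed score of 56.0 against 33.0. Such lists hold widely expressed genes, a gene that is not expressed can have no peak, and the part of expression in these shares was not tested. Transcript length also differs among the lists, and its part was not tested either. In the miR-342-5p list 37.3% of the same genes had a peak. The lists and their members were also chosen with earlier results of these data known, which can raise their shares above the background. The lists and their shares are therefore a map of which mRNAs of each process were bound.

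**Figure D5:**
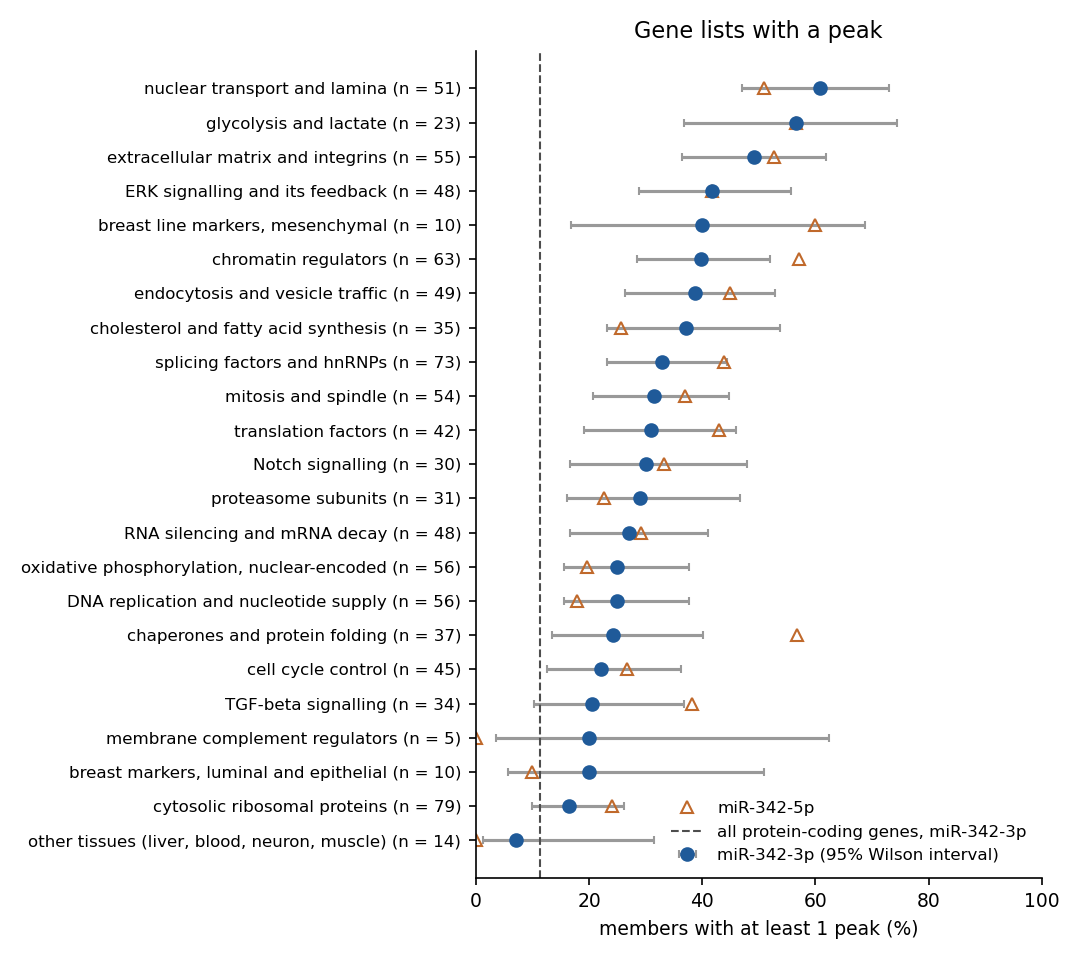
Share of the members of each list described here with at least 1 peak (x axis, percent), with 95% Wilson intervals for miR-342-3p; triangles give miR-342-5p. The dashed line is the share of all protein-coding genes with a miR-342-3p peak, 11.4%; nuclear transport and lamina is highest at 60.8%.

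Genes of nuclear transport and the lamina were bound most often, 31 of 51 (60.8%, CI 47.1–73.0%), where the miR-342-5p list had 26. With scores above 50 required, this list was no longer first. Its share was then 17.6%, beside 43.5% for glycolysis and 27.3% for extracellular matrix and integrins. Above 100 the shares were 3.92%, 30.4% and 14.5%. The 31 bound genes of nuclear transport and the lamina had low scores, a median of 31.0. They included RAN, the GTPase that drives transport (398), XPO1 (340), the nucleoporins NUP188 (104) and NUP93 (65), LEMD3 of the inner membrane (90) and the lamin LMNA (83).

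In glycolysis, 13 of 23 genes (56.5%, the same share as in the miR-342-5p list) were bound, with a median of 153, the highest among lists with over 10 members. Of the smaller lists, the 10 mesenchymal markers (4 bound) had 173 and the 5 complement regulators (1 bound) 2001. All 13 bound glycolysis genes had a peak in a coding exon. PKM had 5 coding-exon peaks of 356, 236, 192, 75 and 50 with no site at any of them. PGK1 (315), the hexokinase HK2 (296), PFKP (194) and GPI (193) had no site either, and SLC2A1 (116), the glucose transporter GLUT1, had a 7mer.

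The extracellular matrix and integrin genes had 27 of 55 bound (49.1%, CI 36.4–61.9%, beside 52.7% in the miR-342-5p list), with a median of 137. MMP14 and ITGB1 led, followed by the integrin chains ITGA3 (587) and ITGB5 (362), with TNC at 397. LAMB3 (300), a laminin chain, had 7 coding-exon peaks without a site, and TIMP3 (249), an inhibitor of matrix proteases, had a 7mer peak in its 3′UTR. CDC42, a GTPase of cell polarity, had the 8mer in its 3′UTR at a peak of 173.

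Of 48 ERK genes 20 (41.7%) were bound, the same share as in the miR-342-5p list. DUSP6 and IER3 led by score, followed by SPRY2 (320), a feedback inhibitor bound in its coding exon. The receptors EGFR (234) and MET (174) had coding-exon peaks without sites, and JUN (106), a transcription factor downstream, had a 7mer peak in its 3′UTR. For TGF-beta, 7 of 34 genes (20.6%) were bound, beside 38.2% in the miR-342-5p list. TGFBR2 was far above ACVR1 (145), SMAD2 (107) and SMAD3 (56). For Notch, 9 of 30 (30.0%) were bound: LFNG, the ligand JAG1 (266 over 6 coding-exon peaks, 2 with a site), the receptors NOTCH2 (137) and NOTCH1 (32), and the proteases PSEN2 (119) and ADAM17 (46) among them.

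In cell cycle control 10 of 45 genes (22.2%) had a peak, with a median of 48.5. CCNE2, a cyclin of S-phase entry, had 163 in a coding exon, and E2F1, the transcription factor of that step, had 65 at the 3′UTR 7mer shown above. TFDP1, the partner of E2F proteins, had 54, MDM2 had 52, and CDK4 had 51 with an 8mer in a coding exon. DNA replication and nucleotide supply had 14 of 56 (25%) and a median of 18.0. RPA1, a single-strand DNA binding protein, had 159, DNMT1, the maintenance DNA methyltransferase, 115, LIG1 56 with a 3′UTR 7mer, MCM5 39, and CDC6, which loads the replicative helicase, 38 with a coding-exon 8mer. RRM2, the ribonucleotide reductase subunit, had 37 at a 3′UTR 8mer. In mitosis 17 of 54 (31.5%) were bound, TACC1 (514) and ANLN (284) at 3′UTR sites, then KIF23 (272), PRC1 (187) and SMC2 (114).

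Splicing factors had 24 of 73 (32.9%), led by PRPF8 (565), HNRNPU (403) and HNRNPL (316). Translation factors had 13 of 42 (31.0%, beside 42.9% in the miR-342-5p list), and after EEF1G and EIF4G1 came EEF1A1 (535), EIF5 (199) and EIF6 (144). RNA silencing and decay had 13 of 48 (27.1%), with the decapping factor EDC4 (289), the deadenylase CNOT8 (200) and AGO2 itself (149), the Argonaute that the antibody captures, which had a 3′UTR peak of 137 with a 7mer. Chaperones had 9 of 37 (24.3%), with TCP1 (423) and HSP90B1 (409) highest, where the miR-342-5p list had 21. Proteasome subunits had 9 of 31 (29.0%), led by PSMB3 (385, with a coding-exon 7mer). Ribosomal proteins had 13 of 79 (16.5%, CI 9.88–26.1%), the lowest share among the lists of processes, with RPL8 (233) and RPL21 (168) highest. Their transcripts are short, with a median of 907 nt, against 4634 nt for nuclear transport and lamina, and longer transcripts were bound more often.

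Lipid synthesis had 13 of 35 (37.1%, beside 25.7% in the miR-342-5p list). FASN, the fatty acid synthase, had 719 over 4 coding-exon peaks, 2 of them with a 7mer, and ACACA (250), which supplies its substrate, had 3. IDI1 (200) of the isoprenoid pathway had a 3′UTR 7mer, and INSIG2 (71), which holds back SREBP proteins, also had one. The chromatin regulators had 25 of 63 (39.7%, beside 57.1% in the miR-342-5p list), with HMGB2 (634) and TET3 (224) highest, and EP300 (163) and CHD4 (155) after them. Vesicle traffic had 19 of 49 (38.8%), led by the clathrin heavy chain CLTC (363), COPA (251) and AP2B1 (243). Oxidative phosphorylation had 14 of 56 (25%, beside 19.6% in the miR-342-5p list), with UQCRC2 (225) and COX6B1 (218) highest. Of 5 membrane complement regulators, CD46 was bound and the others were not.

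The markers were read last. Of 10 genes that mark mesenchymal breast lines, 4 were bound (MSN, LOXL2, CD44 and AXL), of 10 luminal and epithelial markers 2 (KRT19 and ERBB2), and of 14 markers of liver, blood, neuron and muscle 1 (SYT1, with a score of 11). A marker without a peak is not shown to be absent.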

How the data were processed

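Per the labels and the study's methods, RNA bound by Argonaute (anti-Ago2 antibody 4F9) was sequenced from 231HM cells. The submitters' processing notes name cutadapt 1.13, TopHat2 2.0.13, UMI-tools and MACS2 2.1.1.20160309, with hg19. The deposited peak score is the authors' number of reads above background, and the 3 mimic and 3 control libraries were merged before deposit. Depth per library is therefore unknown, and peaks of scarce mRNAs can be missed. Midpoints were placed on GENCODE 44 basic transcripts lifted to hg19 (19519 protein-coding genes, readthrough transcripts left out), in the order 3′UTR, coding exon, 5′UTR, non-coding exon, intron. Sites and GU runs of at least 12 nt were searched within 50 nt of summits on the strand of the peak. Differences between the lists were tested by two-sided Fisher's exact tests.

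Genes were named by rule: the 20 highest summed scores, the 10 with most peaks, the 10 highest bound in coding exons alone, the 5 highest non-coding and the 5 highest intron-alone genes, and the 5 highest members of each list. Others were chosen after their values were seen. 1 gene that the rule names and 1 list are not reported here. The members and lists were chosen with earlier results of these data known. The placement and site search were tested on simulated peaks. The tools were scipy 1.17.1, pysam 0.24.0 and samtools 1.23.1 under Python 3.11.15, with matplotlib 3.10.9, pandas 2.3.3 and numpy 2.4.6.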

Additional observations from a re-analysis of the deposited data

How the results depend on the processing

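The differences between the 2 lists in peaks per gene, in 3′UTR location and in GU runs kept their direction and stayed below p = 0.05 by Fisher's exact test under every alternative run for them, from −7.09 to −10.8, from 17.0 to 24.6 and from 6.20 to 18.4 points. With scores above 50 or above 100 required, the genes with a peak numbered 683 and 317 instead of 2308, and 15.1% and 8.37% of list genes were bound instead of 33.1%, beside a background of 3.39% and 1.58%. Taking only the highest peak of a gene gave 52.1% of the score in the top 10% of genes. Genes with a site were 24.8% within 25 nt of the summit, 11% with 8mers only and 30.2% with 6mers added. Words of the 3′ part were near 12% of summits within 25 nt, 16.1% of those above 50 and 18.0% of those above 100, in alternatives chosen after seeing the data. Keeping readthrough transcripts, also chosen then, gave 2432 genes. No paired analysis was possible because the peak lists merge the libraries of each group. For the same reason no library could be left out.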
